A study of Equus caballus with 9 samples.

Results

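Tenocytes from adult horses were compared with tenocytes from fetal horses after both had been grown for 14 days in three-dimensional collagen gels. The comparison takes 6 of the 9 libraries of the series, chosen by cell type label. There are 3 cell lines of each stage, each sequenced once. Adult tenocytes are represented by CD (passage 4), TB130911 (passage 6) and TB250718B (passage 4), from horses labelled as 2 to 6 years of age. Fetal tenocytes are represented by 271d (passage 5), 319d (passage 8) and 320d (passage 4), taken at gestation days 271, 319 and 320. All were expanded in serum-containing medium, so the lines are cultured cells several passages from the tendon.

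Tenocytes are the resident fibroblasts of tendon and lay down its collagen-rich matrix. In the horse, the superficial digital flexor tendon stores energy during locomotion, and its injuries in the adult heal with scar tissue. Fetal tendon is known for healing with less scar, which is why cells of the 2 stages are compared.

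Polyadenylated RNA was sequenced and estimated counts per gene were used. The totals were 11109492 counts in CD, 20411868 in TB130911 and 18536676 in TB250718B among the adult lines. Among the fetal lines they were 19801323 in 271d, 20705852 in 319d and 10568491 in 320d. CD and 320d thus form a shallower depth class with 1 line of each stage, and the other libraries a deeper one. The study's methods name sequencing providers that used different library kits, while the labels name the same kit for every library and assign none to a provider. The depth class therefore stands in for a batch in the model and may not match the provider. Of 21689 genes listed by Ensembl identifier, 16811 had a count in at least 1 of the 6 libraries. The 12882 genes that passed a filter on low counts held 99.9% of all counts. The identifiers are not paired with gene names in the file, and 0 of them matched the RefSeq gene table used here, so tenocyte markers could not be checked and genes are described by their values.

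The stages separated, but not every line stood equally far from the other stage. In a principal component analysis of log2 CPM of the 500 most variable tested genes, where CPM is the count scaled to the normalized library total, the first component held 71.1% of the variance. Its scores were -48.6 in CD, -17.8 in TB130911 and -54.6 in TB250718B. They were 51.3 in 271d, 49.1 in 319d and 20.6 in 320d. The adult and fetal lines did not overlap on this component, and TB130911 and 320d lay closest to the opposite stage.

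**Figure D1:**
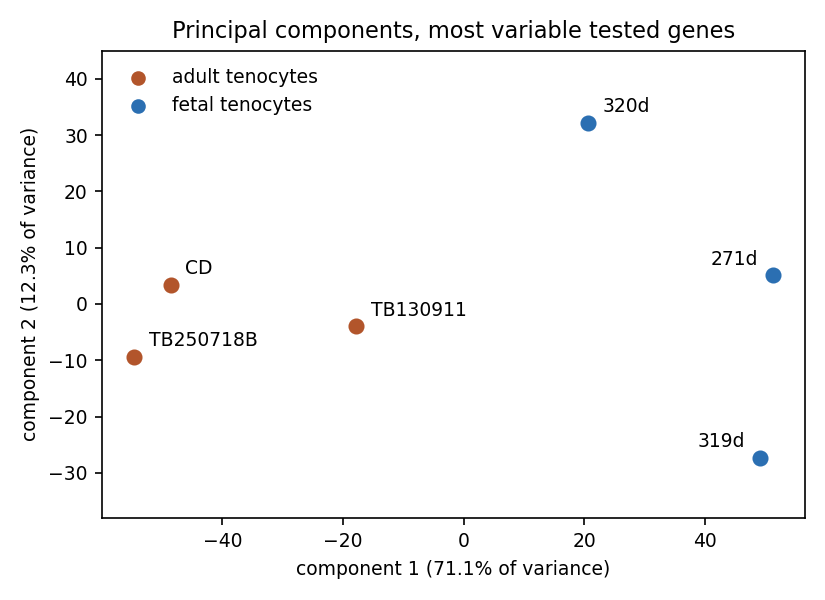
Scores of the 6 libraries on components 1 and 2 (arbitrary units), from log2 CPM of the 500 most variable tested genes. Each point is 1 library, coloured by stage. The adult lines lie at -17.8 or below on component 1 and the fetal lines at 20.6 or above.

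TB130911 and 320d were also closest to the opposite stage in the make-up of the libraries. The composition distance, the share of counts that would have to change gene to turn one library into another, was 11.1% to 15.0% between adult lines and 12.0% to 14.3% between fetal lines. Between an adult and a fetal line it was 13.6% to 22.9%. The lowest of these 9 values was that of TB130911 and 320d, and it lay inside the range seen within a stage. By median absolute log2 difference over genes, CD and 320d, both shallower, were the closest lines across stages, at 0.326. TB130911 and 319d, both deeper, were at 0.333, and TB130911 and 320d at 0.345. The composition distance between the means of the stages was 16.4%. It was 18.5% without TB130911, 18.7% without 320d and 20.6% without both. These lines were singled out for their closeness to the other stage after the data were seen, so a larger distance without them follows in part from how they were chosen.

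Most genes differed little in abundance between the stages. The median absolute log2 fold change was 0.29 over the 12882 tested genes, and 84.1% of them lay within 2-fold. A fitted difference of 2-fold or more was seen in 971 genes higher in adult and 1072 higher in fetal tenocytes. At 4-fold or more there were 317 and 530 genes, at 8-fold or more 140 and 270, and at 16-fold or more 54 and 142. Large differences thus lay more often on the fetal side. Among the tested genes, 6 had 0 counts in every fetal line and 1 had 0 counts in every adult line, and fitted values of such genes depend on the prior count. With these 7 genes set to the lowest fold that a floor of 3 counts allows, the numbers in adult and fetal were 317 and 529 at 4-fold or more, 137 and 269 at 8-fold or more, and 48 and 141 at 16-fold or more. The median was still 0.29.

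**Figure D2:**
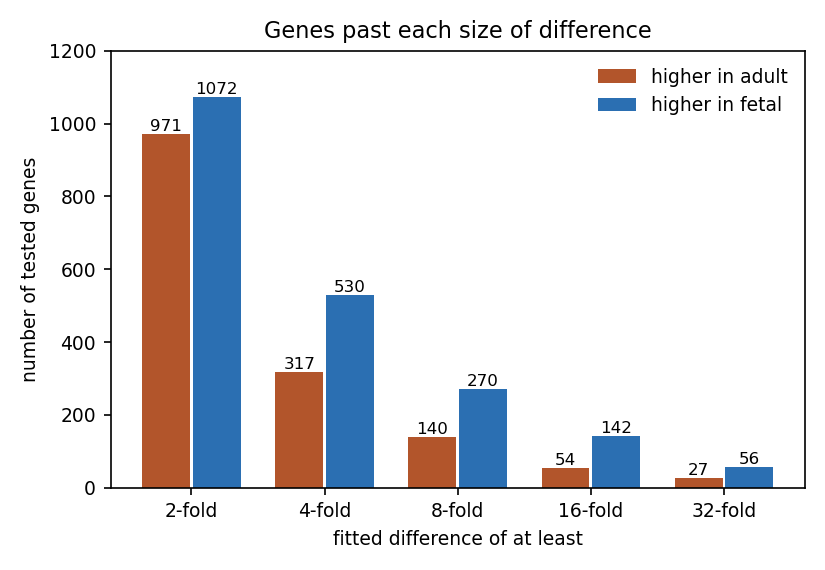
Number of tested genes (vertical axis) whose fitted adult to fetal difference is at least the fold on the horizontal axis, with 1 bar for each direction. Bars are counts of genes over 6 libraries and carry no error. The fetal bar is taller at each fold, as in 530 against 317 genes at 4-fold.

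A gene was called DE (differentially expressed) at an absolute log2 fold change of 2 or more and an adjusted p below 0.01 in edgeR's quasi-likelihood test, with the depth class as a term. Of the tested genes, 5 were DE, or 0.0388%, of which 3 were higher in adult and 2 in fetal tenocytes. With genes and model unchanged, DESeq2 (Wald test) gave 612 DE genes, 240 higher in adult and 372 higher in fetal tenocytes, and these included all 5. The number of DE genes therefore rests on the test used. At an adjusted p below 0.05 in edgeR with no fold threshold, 964 genes were called, or 7.48% of those tested. They were 464 genes higher in adult (3.60%) and 500 higher in fetal tenocytes (3.88%). DESeq2 called 2313 of the 12882 tested genes at that threshold, among them 963 of the 964. Without adjustment, 3312 genes had a p below 0.05 in edgeR, or 25.7% of those tested.

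Fits with fewer lines gave fewer calls in most cases. With 1 line left out at a time, edgeR gave 0 DE genes in 5 of the 6 fits and 11 without TB130911. The smallest adjusted p over all genes was 0.0163 to 0.0355 in those 5 fits, so no gene reached the DE threshold whatever its fold. The number at an adjusted p below 0.05 fell to 319 without CD, 607 without TB130911, 257 without TB250718B, 279 without 271d, 126 without 319d and 355 without 320d. Each of these fits tested the same 12882 genes. In them DESeq2 gave 416 to 650 DE genes, and between 2306 and 3206 genes had an unadjusted p below 0.05 in edgeR. Each such fit has fewer libraries, and without CD or 320d the remaining shallower library is taken up by the depth term. With TB130911 and 320d both left out and no depth term, edgeR gave 92 DE genes and 1153 at an adjusted p below 0.05. With all 6 lines and no depth term it gave 2 and 896.

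The genes called at an adjusted p below 0.05 in edgeR had a median absolute log2 fold change of 1.63 where adult was higher and 2.11 where fetal was higher. The smallest called differences were 0.54 and 0.53 on the log2 scale. Of the 847 genes at 4-fold or more, 446 were called, so a large fitted difference often did not pass the test. Adult and fetal values did not overlap in 3914 genes, or 30.4% of those tested, with adult above in 2013 and fetal above in 1901. For a gene without a stage difference, 3 lines separate from 3 with probability 0.1, and no test of the share was made. The gap between the nearest adult and fetal lines was 2-fold or more in 228 genes with adult above and 345 with fetal above. It was 4-fold or more in 56 and 112 genes.

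ENSECAG00000005573 had the smallest p among genes higher in adult tenocytes. It was at 80.4 CPM in CD, 52.2 in TB130911 and 79.6 in TB250718B, and at 1.86 in 271d, 2.14 in 319d and 2.38 in 320d. Every adult line was far above every fetal line, and the fetal lines lay close together. The edgeR fit put the difference at 5.04 on the log2 scale, with a standard error of 0.23 and an adjusted p = 0.00669.

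ENSECAG00000020129 was more abundant in reads. It was at 327 CPM in CD, 618 in TB130911 and 561 in TB250718B, against 27.0 in 271d, 39.2 in 319d and 12.2 in 320d. The lowest values of each stage were those of the shallower libraries, CD and 320d, and the part of depth class in this was not tested. The edgeR fit put the difference at 4.34 on the log2 scale, with a standard error of 0.24 and an adjusted p = 0.00799. Without the depth term, the edgeR fit gave 4.26 and an adjusted p = 0.0135, so the DE call was lost while the difference stayed about as large.

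ENSECAG00000013151 had the smallest p among genes higher in fetal tenocytes. It was at 7.74 CPM in CD, 9.61 in TB130911 and 8.29 in TB250718B, and at 61.9 in 271d, 63.9 in 319d and 50.5 in 320d. Both stages were narrow and well apart. The edgeR fit put the difference at -2.78 on the log2 scale, with a standard error of 0.14 and an adjusted p = 0.00669.

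ENSECAG00000014769 was at 11.2 CPM in CD, 21.2 in TB130911 and 21.6 in TB250718B, and at 85.5 in 271d, 81.5 in 319d and 48.7 in 320d. The shallower libraries were again lowest in their stage, and the stages did not overlap. The edgeR fit put the difference at -2.02 on the log2 scale, with a standard error of 0.12 and an adjusted p = 0.00852, close to the fold that DE requires. Without the depth term, the edgeR fit gave -1.996 and an adjusted p = 0.0227, so the DE call was lost while the difference stayed about as large. All 4 of these genes were at an adjusted p below 0.05 in each of 14 alternative edgeR fits. The DE call itself held in 8, 4, 7 and 3 of the fits, in the order given here. The genes were picked for small p in these libraries, which the fits share, so this is a description and not independent evidence. The fits without CD, without 320d and on the deeper libraries alone all rest on the deeper libraries, so they are not distinct. The DE gene not shown by identifier was higher in adult tenocytes, at a mean of 185 against 27.0 CPM.

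**Figure D3:**
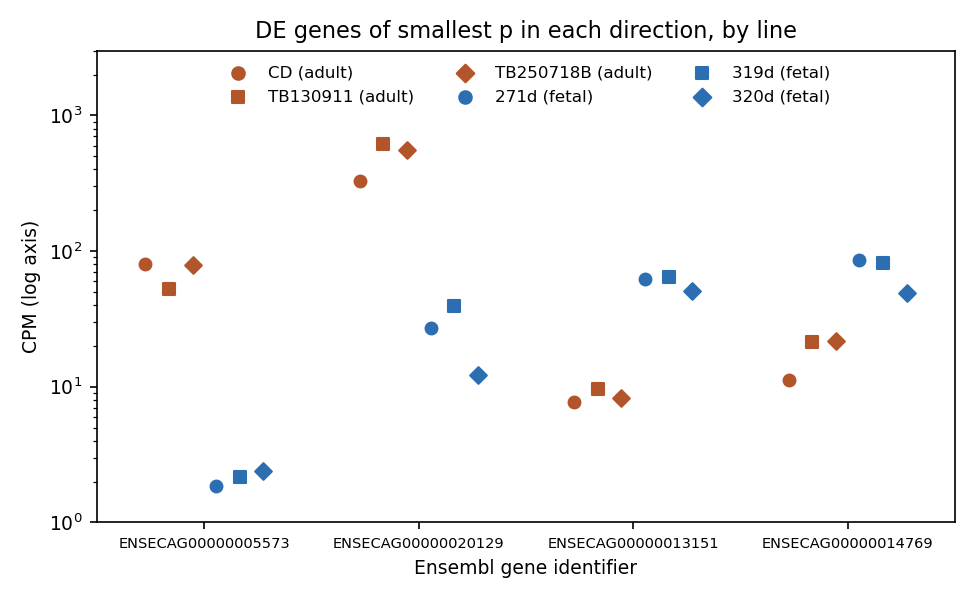
CPM (log axis) of the pair of DE genes with the smallest edgeR p in each direction, the first pair higher in adult and the second pair higher in fetal tenocytes. Each point is 1 library, coloured by stage. In ENSECAG00000005573 the lowest adult line is at 52.2 and the highest fetal line at 2.38.

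Large differences were most frequent among genes with few reads. The tested genes were put in 4 groups of nearly equal size by mean CPM, which reflects reads per gene and not transcripts per length. The median absolute log2 fold change was 0.55 in the lowest group, up to 7.53 CPM, and 0.27, 0.22 and 0.24 in the next 3. The lowest group held 430 of the genes at 4-fold or more, against 181, 124 and 112 in the others. The spread between lines was also larger there, with a median SD of log2 CPM of 0.44 in adult and 0.44 in fetal lines, against 0.19 and 0.19 in the highest group. The share called at an adjusted p below 0.05 in edgeR was 6.93%, 7.79%, 6.65% and 8.57% from the lowest to the highest group. It thus differed less between groups than the fold sizes did. In each group more genes were at 4-fold or more on the fetal side, with 272 against 158 in the lowest and 66 against 46 in the highest.

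Genes with many reads took up more of the adult libraries. The 10 genes with most counts of each library held 15.5% of counts in CD, 10.5% in TB130911 and 13.6% in TB250718B. In the fetal lines they held 9.40% in 271d, 10.0% in 319d and 10.3% in 320d. Each adult line was above each fetal line, although TB130911 exceeded 320d by little (exact two-sided permutation test, p = 0.1, the smallest that 3 lines against 3 allow). At an equal total of 10000000 counts, the expected number of genes detected was 14468, 14483 and 14435 in the adult lines and 14783, 14737 and 14902 in the fetal lines, in the order used above. More genes were detected in every fetal line (exact two-sided permutation test, p = 0.1). Only the total was matched, and the 10 genes with most counts held more of it in every adult line. The part of this in the number detected was not tested.

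The 100 genes whose share of counts differed most gave 42.5% of the distance between stage means. They were ranked on that same difference, so a large part follows from how they were chosen. Of these 100 genes, 58 had the higher share in adult tenocytes. At an adjusted p below 0.05 in edgeR 28 of the 100 were called, and 1 was DE. The 464 called genes higher in adult took up 5.35% to 7.82% of counts in the adult lines and 1.86% to 2.96% in the fetal lines. The 500 called genes higher in fetal took up 3.51% to 5.32% of counts in the fetal lines and 1.15% to 1.54% in the adult lines. The values nearest the other stage were those of TB130911 and 320d in both sets, and since the genes were called on these libraries the shares are a description.

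Few genes were on in every line of one stage and near zero in the other. On was taken as at least 1 CPM in all 3 lines of a stage, and near zero as at most 3 counts in each line of the other. The rule found 7 genes on in adult tenocytes and 9 on in fetal tenocytes. These numbers depend on the cut-offs. They were 28 and 57 with 10 counts allowed, 26 and 26 at 0.5 CPM, and 1 and 0 at 5 CPM. The 7 genes had means of 1.39 to 23.9 CPM in the adult lines, with a median of 2.58. The most abundant of them had 128, 260 and 827 counts in CD, TB130911 and TB250718B and 3, 1 and 2 counts in 271d, 319d and 320d. In 3 of the 7 genes no count was seen in any fetal line. The most abundant of these 3 had 33, 26 and 133 counts in CD, TB130911 and TB250718B, so its level was carried largely by TB250718B, and its adjusted p in edgeR was 0.0545.

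The 9 genes on in fetal tenocytes had means of 1.92 to 8.47 CPM there, with a median of 3.39. The most abundant of them had 212, 86 and 122 counts in 271d, 319d and 320d and 1, 0 and 1 counts in CD, TB130911 and TB250718B. None of the 9 was at 0 counts in all adult lines. In the stage that was on, a line had 11 to 827 counts of a gene in the adult set and 12 to 238 in the fetal set. In the other stage the rule itself keeps the counts at or under the floor, where absence cannot be told from low abundance at this depth.

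Further genes followed the rule in all but 1 line of the stage that was on. There were 22 such genes in adult and 34 in fetal tenocytes. The line below 1 CPM was TB130911 in 18 of the 22 and 320d in 20 of the 34. Since every line has to pass, leaving a line out can only keep or raise these numbers. Without TB130911 the rule found 25 genes on in adult and 64 on in fetal tenocytes, and without 320d it found 12 and 29. Without 1 of the other lines it found 8 to 12 and 13 to 16. Without both TB130911 and 320d, picked after their values were seen, it found 35 and 111.

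The lines of a stage differed from each other to a like extent in adult and fetal tenocytes. The median SD of log2 CPM over 3 lines was 0.25 in adult and 0.25 in fetal tenocytes, and the SD was larger in adult lines for 6437 genes and in fetal lines for 6445. The common biological coefficient of variation from edgeR was 0.282 in adult and 0.333 in fetal tenocytes. No test of this difference was made. A range of 4-fold or more between lines was seen in 668 genes in adult, 727 in fetal and 247 in both stages. The line farthest from the median of its stage in such genes was TB130911 for 43.1% of the 668 and 320d for 48.1% of the 727.

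Genes that varied between lines were set beside the others. Of the 1148 genes with a range of 4-fold or more in either stage, 483 (42.1%) were at 4-fold or more between stages, against 364 (3.10%) of the 11734 other genes. With 3 lines per stage, a wide spread between lines by itself gives more large fitted differences, so these shares are a description. Of the 1148, 174 (15.2%) were called at an adjusted p below 0.05 in edgeR, against 790 (6.73%) of the others. The variable genes had fewer reads, with a median of 4.72 CPM against 25.9, and the part of abundance in this was not tested.

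Within the 847 genes at 4-fold or more between stages, the lines did not contribute evenly. TB130911 was the adult line nearest the fetal values in 555 genes (65.5%), CD in 189 and TB250718B in 103. Among fetal lines, 320d was nearest the adult values in 498 genes (58.8%), 319d in 234 and 271d in 115. This held on both sides, since TB130911 was nearest in 217 of the 317 genes higher in adult and in 338 of the 530 higher in fetal. The genes were picked by fold from the same values in which TB130911 and 320d already lay nearest the other stage. These counts are therefore a description, and the share over all tested genes is not given. Passage, donor and library preparation cannot be told apart from the line itself with 1 library per line.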

How the data were processed

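The authors made the deposited estimated counts with Salmon against the Ensembl v96 EquCab3.0 transcriptome, with GC-bias correction, and summed them to genes in R 3.5.2. They were rounded to whole numbers here. Analyses used R 4.3.3, edgeR 4.0.16 (filterByExpr, TMM, quasi-likelihood test, Benjamini-Hochberg adjustment), DESeq2 1.42.0 and limma 3.58.1. The model held stage and depth class (total above or below 15000000), leaving 3 residual degrees of freedom. CPM used TMM, and log2 CPM a prior count of 2. Standard errors shown were derived as the absolute log2 fold change divided by the square root of the F statistic, since the test returns none. The edgeR fit was also run on simulated counts, with dispersions estimated from these libraries and no depth-class effect. Its outcome is not reported here and is not used to back the calls above. Identifiers shown are the 2 DE genes of smallest p in each direction.

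The members and lists were chosen with earlier results of these data known. The depth term was kept after trial fits with and without it on a shortened copy of the counts had been seen, and more genes passed with it. It was planned to report 5 genes by name. They were dropped after their values were seen, because their names rested on matching values printed in the study, some read from a picture, and not on a table. Depth limits single genes by counting error, and 3 counts were taken as the floor.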

Additional observations from a re-analysis of the deposited data

How the results depend on the processing

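The count of DE genes was not stable. Against 5, it was 612 in DESeq2, 2 without the low-count filter, 2 without the depth term, 0 in the deeper libraries alone and 21 with all 9 libraries sharing the spread. With 1 line left out it ranged from 0 to 11 in edgeR. The count at an adjusted p below 0.05 (964) was 2313 in DESeq2 and 333 in the deeper libraries alone, and 126 to 607 with 1 line left out. In the deeper libraries alone 3198 genes had an unadjusted p below 0.05. Normalization with DESeq2 size factors, a mean of 1 CPM as filter and robust estimation kept both counts within 1.5 times.

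Alternatives chosen after seeing the data were these. With TB130911 and 320d left out and no depth term, DE genes numbered 92 in edgeR and 824 in DESeq2, which called 2287 at 0.05. DESeq2 with 1 line left out gave 591, 650, 430, 416, 493 and 590 DE genes and 1857, 1786, 1272, 1432, 1495 and 1841 at 0.05, for CD, TB130911, TB250718B, 271d, 319d and 320d. Without the low-count filter it gave 641 and 2363.

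The median absolute log2 fold change (0.29) was 0.40 without the filter, 0.36 without TB130911 and 320d, and 0.27 to 0.35 with 1 line left out. Genes on in adult numbered 3 at 0 counts allowed, 28 at 10, 1 at 5 CPM, 26 at 0.5 CPM, 17 in the deeper libraries, 35 without TB130911 and 320d, and 8 to 25 with 1 line left out. Genes on in fetal numbered 0, 57, 0, 26, 37 and 111 in that order, and 13 to 64.

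The median SD was 0.18 in adult and 0.17 in fetal lines on variance-stabilised counts, 0.21 and 0.20 from 10 CPM, and 0.20 and 0.20 with depth class removed. The composition distance was 14.5% without the 100 genes with most counts, 18.4% in the deeper libraries, 20.6% without TB130911 and 320d, and 15.4% to 18.7% with 1 line left out. The variance on the stage component was 61.2% over all tested genes, 78.5% with depth class removed, and 67.3% to 79.3% with 1 line left out. The cause of these shifts was not tested.

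No paired analysis was possible because the adult and fetal lines come from different animals and their replicate numbers only follow accession order. Alternatives planned for genes identified by name are not reported, since those genes were dropped. Each of the 4 identifiers kept its direction in 23 alternatives and an adjusted p below 0.05, and lost the DE call in 6 to 13. They were picked for small p in these same libraries, so this is a description. Their log2 fold changes were 4.83 to 5.31 (ENSECAG00000005573), 3.73 to 4.56 (ENSECAG00000020129), -2.98 to -2.72 (ENSECAG00000013151) and -2.35 to -1.97 (ENSECAG00000014769). With 3 lines per stage, depth limits genes near the floor most.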
